A study of Drosophila melanogaster with 12 samples.

Results

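The heat shock protein genes described here encode molecular chaperones of Drosophila melanogaster and the factor that switches them on. Members were the 10 genes Hsp22, Hsp23, Hsp26, Hsp27, Hsp60A, Hsp67Bc, Hsp68, Hsp83, DnaJ-1 and Hsf, and a probe set counted as a member's where the platform annotation gives it that gene symbol and no other. Of the 10 genes, 6 had such a probe set, 1 each, and all 6 probe sets were among the 12827 tested of 18952 in the table. These were Hsf (1626844_at), Hsp26 (1635044_at), Hsp27 (1628117_at), Hsp68 (1638872_at), DnaJ-1 (1637059_s_at) and Hsp60A (1641286_s_at). Hsp22 was named only on probe sets that also carry CG4456, and Hsp23, Hsp67Bc and Hsp83 were not named in the annotation used here and were not analysed here.

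RNA of adult and larval fruit flies was hybridised to 12 Affymetrix Drosophila genome arrays, 3 in each of 4 groups. The groups were adult flies with a knockdown of Sps2 (written SPS2 in the labels), adult wild-type flies, larvae with the same knockdown, and wild-type larvae. Sps2 encodes selenophosphate synthetase 2, the enzyme that makes the selenium donor for selenocysteine, and from the series title the question was which transcripts differ when it is reduced. Per the labels, all animals were raised at 25 degrees Celsius on cornmeal and yeast food, and no heat shock is named. How the knockdown was made, the line used as wild type, and the age, sex, body part and number of animals behind an array are not stated in the sources used. The arrays of a group are labelled as biological replicates, and nothing further says whether they came from separate cultures, so p-values measure the spread between these arrays.

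In heat-stressed fly cells the heat shock factor, encoded by Hsf, forms trimers on heat shock elements and drives transcription of chaperone genes. The small heat shock proteins (Hsp22, Hsp23, Hsp26, Hsp27, Hsp67Bc) hold unfolding proteins without using ATP. The Hsp70 class, to which Hsp68 belongs, refolds them with ATP and with a J-domain partner of the DnaJ-1 kind, Hsp83 is the fly Hsp90, and Hsp60A is the mitochondrial chaperonin. In Drosophila several of these genes are also switched on in development without heat: the small heat shock protein genes respond to ecdysone late in larval life, and Hsp26 and Hsp27 are expressed in the germline. In the gene table of RefSeq (assembly Release 6 plus ISO1 MT) Hsp67Bc, CG4456, Hsp22, Hsp26, Hsp23 and Hsp27 belong to 1 cluster, and CG4456 overlaps Hsp22.

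The knockdown was checked on Sps2, which read 113.4 to 137.9 in knockdown adults against 878.4 to 919.6 in wild-type adults, and 138.0 to 188.3 in knockdown larvae against 717.7 to 830.4 in wild-type larvae, in linear MAS5 signal. MAS5 signal is Affymetrix's brightness of a probe set after background correction, here scaled by the authors to 1 trimmed mean per array. The median log2 signal of an array averaged 6.44 for knockdown adults and 6.72 for wild-type adults, a difference of -0.28, and 6.09 for knockdown larvae and 6.01 for wild-type larvae. Centring the arrays on their medians therefore adds 0.28 to every adult change. The log2 difference between the 3' and 5' control probe sets, which grows with RNA breakdown or short cRNA, was 2.44 ± 0.07 for knockdown adults, 2.42 ± 0.07 for wild-type adults, 3.70 ± 0.06 for knockdown larvae and 3.51 ± 0.11 for wild-type larvae (SD, n = 3 each).

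Sums of the marker lists did not overlap between the genotypes of a stage, except those of female germline markers in larvae. The sums were taken under the deposited scaling only, where the array medians of knockdown and wild-type adults differed by -0.28. The lists' counts of called genes stand beside 14.2% higher and 16.2% lower over all 10426 genes tested in adults, and 15.8% higher and 11.0% lower in larvae. The 9 adult stage markers measured summed to 61221 to 68585 in knockdown adults and 71091 to 74864 in wild-type adults. In larvae their sums were 397.4 to 433.4 for the knockdown, against 519.7 to 685.1 for wild type. Of the 9, 4 in knockdown larvae and 6 in wild-type larvae lay below the lowest level tested on all arrays. In larvae 1 was called higher (Yp2, log2 1.74, limma adjusted p = 0.0203) and 1 lower (Yp3, log2 -1.22, limma adjusted p = 0.000166). In adults 0 were called higher and 2 lower. The 9 larval stage markers (serum proteins, fat body proteins and salivary glue genes) summed to 189.9 to 402.6 in larval knockdown, where 7 lay below the lowest level tested on all arrays, against 1308, 26177 and 27576 on wild-type larval arrays 1, 2 and 3, where 2 did. Only 3 were tested. In knockdown larvae Fbp2 (log2 -6.78) and Lsp2 (log2 -5.60) were called lower, and the glue gene Sgs5 was not called (log2 -1.25, limma adjusted p = 0.150). In adults the 9 markers summed to 1490 to 1693 in knockdown and 192.7 to 420.7 in wild type, with 8 of the 9 below that level in both. Ecdysone response genes summed to 6929 to 7243 in knockdown larvae and 8107 to 8175 in wild-type larvae, with 0 higher and 4 lower of 13 tested. In adults they summed to 7811 to 8247 in knockdown and 8702 to 9123 in wild type, with 0 higher and 5 lower of 13. Testis markers summed to 12845 to 15318 in knockdown adults and 19975 to 22649 in wild-type adults (0 higher and 12 lower of 16). In larvae the sums were 2726 to 3844 for the knockdown, against 2027 to 2477 for wild type (8 higher and 0 lower). Female germline markers summed to 86993 to 96945 in knockdown adults and 101851 to 109275 in wild-type adults (0 called of 14). In larvae they summed to 427.1 to 451.6 for the knockdown, against 428.0 to 475.1 for wild type (0 higher and 3 lower). Of the 14, 8 in knockdown larvae and 9 in wild-type larvae lay below the lowest level tested on all arrays. Among those called lower in larvae, Vm32E and orb averaged below that level in both genotypes, so these calls carry little signal over background. Muscle genes summed to 27388 to 30803 in knockdown adults and 33761 to 36001 in wild-type adults (0 higher and 7 lower of 12). In larvae the muscle sums were 109440 to 116481 for the knockdown, against 123236 to 126267 for wild type (0 higher and 3 lower). The part of these differences in the results below was not tested. In whole-animal RNA, fewer cells of a type and less RNA per cell cannot be told apart.

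Across the 6 genes the knockdown had no single direction, and the pattern differed between the stages in 1 gene. Hsp26 and Hsp27 were higher and Hsp60A was lower with the knockdown at both stages, DnaJ-1 was higher in larvae, Hsf was lower in adults, and Hsp68 was lower in knockdown adults but higher in knockdown larvae. In adults 2 of the 6 were called higher, where 14.2% of all 10426 genes tested were, and 3 were called lower, where 16.2% of all genes were. In larvae 4 were called higher against 15.8% of all genes, and 1 was called lower against 11.0% of all genes. A call is an adjusted p under 0.05 by limma with Benjamini-Hochberg adjustment over all tested probe sets. The members' median log2 change was -0.05 in adults, the same as that of all genes (-0.05), and 0.51 in larvae, where that of all genes was 0.05.

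Knockdown and wild-type arrays had no overlap for 6 of the 6 genes in adults, as for 60.9% of all genes, and for 5 of the 6 in larvae, as for 36.3% of all genes. Counted over both stages, 2 of the 6 members were called higher at both, 1 lower at both, 1 lower in adults and higher in larvae, and 0 the other way. Over all genes these counts were 508, 506, 208 and 87. Centring each array on its median, which makes 85.5% of the genes called in adults higher with the knockdown where the deposited scaling makes 46.8% so, left the adult call and direction of Hsp26, Hsp27, Hsp68 and Hsp60A in place and ended that of Hsf.

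**Figure D1:**
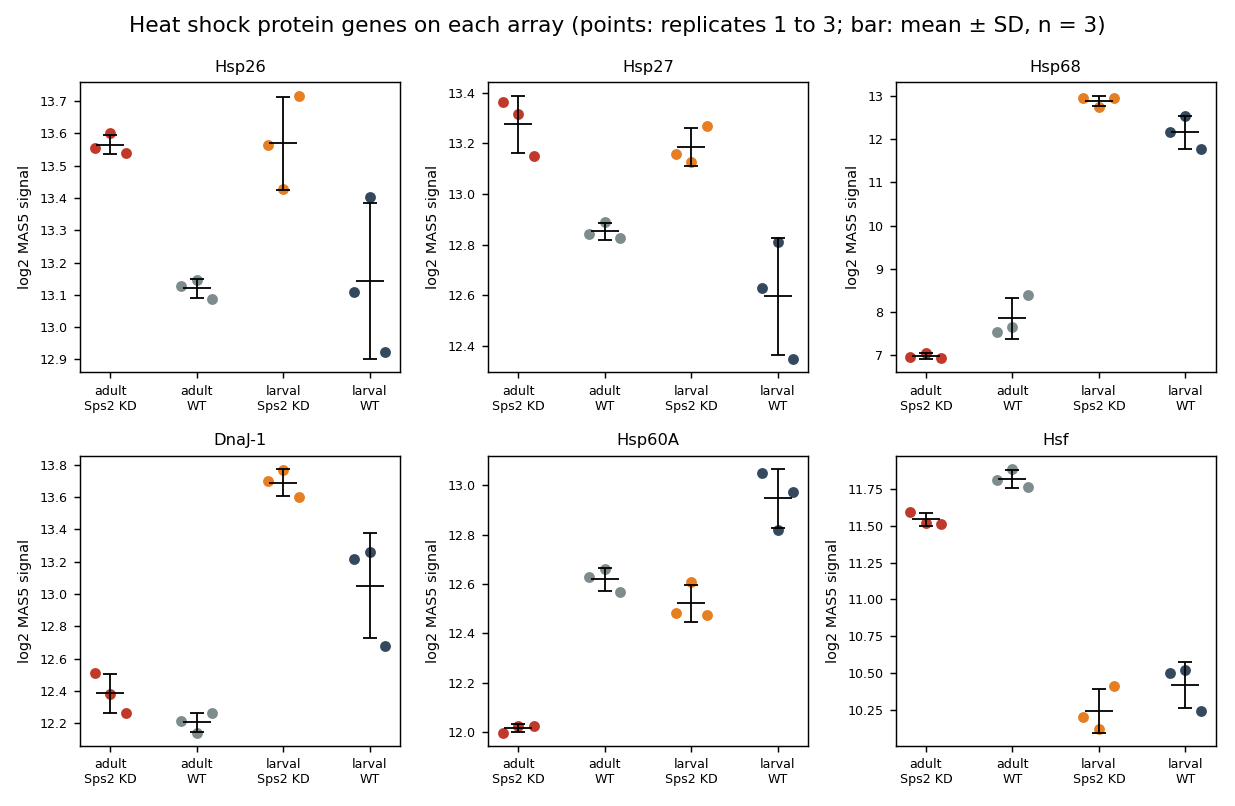
Log2 MAS5 signal of the 6 heat shock protein genes with a probe set of their own, 1 panel per gene with its own axis range, with 1 point per array (replicates 1 to 3, left to right) and a bar for the mean ± SD (n = 3); the groups are knockdown (KD) and wild type (WT) adults, then knockdown and wild-type larvae. Hsp26 and Hsp27 sit higher in the knockdown at both stages, Hsp60A lower, and Hsp68 lower in knockdown adults but higher in knockdown larvae.

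Hsf, the transcription factor of the heat shock response, read 3102, 2934 and 2931 in adult knockdown against 3598, 3789 and 3487 in adult wild type. All 3 knockdown adults lay below all 3 wild-type adults, and Hsf was 1.21-fold lower (log2 change -0.28, SE 0.08, limma adjusted p = 0.0281). The adult call depended on single arrays and on the scaling. It was lost on leaving out adult knockdown array 2 (adjusted p = 0.0874) or 3 (0.0737), or adult wild-type array 1 (0.0647), 2 (0.0971) or 3 (0.0502), and with arrays centred on their medians the change was 0.0023 (adjusted p = 0.987). In larvae Hsf read 1176, 1112 and 1359 with the knockdown and 1450, 1465 and 1207 in wild type. These arrays overlapped, since knockdown array 3 lay above wild-type array 3, and the difference was not called (log2 change -0.18, SE 0.08, limma adjusted p = 0.155). It was called without larval knockdown array 3 (adjusted p = 0.0413) or larval wild-type array 3 (0.0294), and with arrays centred on their medians (0.0444). The level of Hsf differed between the stages as well: adult wild type averaged 11.82 ± 0.06 and larval wild type 10.42 ± 0.16 in log2 signal (SD, n = 3 each), 2.65-fold higher in adults (log2 difference 1.40, SE 0.08, adjusted p = 7.61e-09).

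Among the small heat shock proteins, Hsp26 was higher with the knockdown at both stages. It read 12040, 12417 and 11916 in adult knockdown against 8948, 9069 and 8705 in adult wild type, and 12100, 11018 and 13467 in larval knockdown against 8827, 10822 and 7760 in larval wild type. Every knockdown array lay above every wild-type array of its stage, with the narrowest gap in larvae between knockdown array 2 and wild-type array 2. The change was 1.36-fold in adults (log2 0.44, SE 0.10, limma adjusted p = 0.00551) and 1.34-fold in larvae (log2 0.43, SE 0.10, limma adjusted p = 0.00743). The adult and larval effects differed by 0.02 on the log2 scale (adjusted p = 0.94), but with arrays centred on their medians the changes were 0.72 in adults and 0.34 in larvae and their difference was called (log2 0.39, adjusted p = 0.0412). Wild-type adults and larvae differed by -0.02 (adjusted p = 0.831). Each of these 2 knockdown calls held in all 21 alternative fits run for it, with log2 changes of 0.43 to 0.72 in adults and 0.31 to 0.55 in larvae.

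Hsp27, a second member from this cluster, was higher with the knockdown at both stages. CG4461, which lies between Hsp22 and Hsp26 and was not among the members, averaged 11.03 in knockdown adults and 11.17 in wild-type adults in log2 signal (log2 change -0.14, adjusted p = 0.873). In larvae its mean was lower with the knockdown but lay below the lowest level tested in both genotypes, and the difference was not called (log2 change -1.59, adjusted p = 0.0513). Hsp27 read 10546, 10200.0 and 9087 in adult knockdown against 7336, 7592 and 7274 in adult wild type, and 9131, 8952 and 9885 in larval knockdown against 6331, 7185 and 5218 in larval wild type. No arrays of the genotypes overlapped at either stage. The gene was 1.34-fold higher in knockdown adults (log2 0.42, SE 0.09, limma adjusted p = 0.00569) and 1.5-fold higher in knockdown larvae (log2 0.59, SE 0.09, limma adjusted p = 0.000721), and the difference between the stages was not called (log2 -0.17, adjusted p = 0.415). Both calls held in all 21 alternatives, over log2 ranges of 0.38 to 0.70 in adults and 0.47 to 0.70 in larvae. Wild-type arrays of both genes spread more in larvae than in adults, with an SD of 0.24 in larval wild type and 0.03 in adult wild type for Hsp26, and of 0.23 in larval wild type and 0.03 in adult wild type for Hsp27. The median SD over all tested probe sets was also larger in larval wild type (0.18) than in adult wild type (0.10).

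Hsp22, a small heat shock protein of the mitochondria, could be read only together with CG4456, on 2 probe sets that did not behave alike in larvae. The brighter of the pair (1629061_s_at) read 675.4, 589.8 and 658.4 in adult knockdown against 1167, 1342 and 1256 in adult wild type, and 7619, 6814 and 8611 in larval knockdown against 5316, 7039 and 5199 in larval wild type. It was lower in knockdown adults (log2 -0.97, SE 0.12, limma adjusted p = 7.45e-05) and higher in knockdown larvae (log2 0.40, SE 0.12, limma adjusted p = 0.0234), although wild-type array 2 lay above knockdown array 2. The larval call was lost in 9 of 21 alternatives, while the adult call and that of the difference between the stages (log2 -1.37, SE 0.16, adjusted p = 0.000255) held in all that were run. The dimmer probe set (1630487_s_at) read 107.6, 103.6 and 103.0 in adult knockdown against 176.7, 154.4 and 186.5 in adult wild type, and 315.3, 239.7 and 361.0 in larval knockdown against 445.4, 804.9 and 592.6 in larval wild type. It was lower at both stages (log2 -0.72 in adults, adjusted p = 0.0179; log2 -0.99 in larvae, adjusted p = 0.00318), the adult call being lost in 6 of 21 alternatives. Which share of either signal belongs to Hsp22 was not tested.

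Hsp68, a stress-inducible Hsp70 protein, changed in opposite directions at the 2 stages. It read 124.4, 132.6 and 121.9 in adult knockdown against 185.1, 200.03 and 337.1 in adult wild type, and 7999, 6892 and 7953 in larval knockdown against 4598, 5952 and 3500 in larval wild type. All knockdown adults lay below all wild-type adults, and all knockdown larvae above all wild-type larvae. The gene was 1.84-fold lower in knockdown adults (log2 -0.88, SE 0.21, limma adjusted p = 0.00880) and 1.66-fold higher in knockdown larvae (log2 0.73, SE 0.21, limma adjusted p = 0.0239).

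The difference between these effects was itself called (log2 -1.61, SE 0.30, limma adjusted p = 0.00362), the only such call among the 6 genes, where 21.9% of all genes were called for a difference between the stages. It held in all 20 alternatives, over -1.80 to -1.24. The adult call held in all 21, and without adult wild-type array 3, the high one, the change was -0.61 (adjusted p = 0.0267). The larval call rested more on single arrays: it was lost without larval wild-type array 3 (log2 0.54, adjusted p = 0.0936) or array 1 (0.0518) and without larval knockdown array 1 (0.0652) or array 3 (0.0691). The wild-type arrays of Hsp68 spread widely, with an SD of 0.47 log2 in adults, above that of 91.5% of probe sets, and of 0.38 in larvae, above 78.5%.

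The Hsp70 genes proper, the main heat-inducible chaperones of the fly, lie in near-identical copies and were measured only by probe sets that name several of them, so their values belong to no single copy. On the probe set for Hsp70Bbb, Hsp70Bc, Hsp70Bb and Hsp70Ba (1626821_s_at) adult knockdown read 110.3, 92.2 and 83.4 against 178.7, 129.5 and 416.1 in adult wild type. Larval knockdown read 9862, 11764 and 10775 against 9976, 9918 and 4626 in larval wild type. Adults of the genotypes did not overlap and the adult difference was called (log2 -1.17, SE 0.37, limma adjusted p = 0.0334). That call was lost in 7 of 21 alternatives, and without adult wild-type array 3 the difference was -0.68 (adjusted p = 0.118). Larvae overlapped and were not called (log2 0.48, adjusted p = 0.383). The difference between the stages was called (log2 -1.65, SE 0.52, adjusted p = 0.0432) and lost in 14 of 20 alternatives.

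The remaining Hsp70 probe sets name other combinations of copies. The pair Hsp70Bc and Hsp70Bb (1632841_x_at) read 50.0, 48.6 and 32.9 in adult knockdown against 57.3, 71.3 and 153.5 in adult wild type, and 6322, 7969 and 6705 in larval knockdown against 5521, 6193 and 2818 in larval wild type. Adult knockdown averaged 5.43 in log2 signal, near the lowest level tested (5.14), and its array 3 (5.04) lay below that level. Neither knockdown difference was called (log2 -0.99, adjusted p = 0.0519 in adults; log2 0.60, adjusted p = 0.240 in larvae), the adult one being called in 5 of 21 alternatives, and the difference between the stages (log2 -1.59, SE 0.50, adjusted p = 0.0396) was called and lost in 14 of 20 alternatives. Hsp70Aa and Hsp70Ab (1639571_s_at) read 1059, 1006 and 801.5 in adult knockdown against 622.8, 458.6 and 1064 in adult wild type, and 11156, 12530 and 10951 in larval knockdown against 9169, 9909 and 4971 in larval wild type, with no call in adults (log2 0.50, adjusted p = 0.220) or larvae (log2 0.59, adjusted p = 0.162). The adult change was called under median centring (log2 0.78, adjusted p = 0.0314) and without adult wild-type array 3 (0.83, 0.0395), and was 0.22 (0.619) without adult wild-type array 2. The larval change was 0.27 (adjusted p = 0.507) without larval wild-type array 3. Adult wild-type array 3 was the highest of its group, and larval wild-type array 3 the lowest, on each of these 3 probe sets.

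A probe set that names CG31343 with Hsp70Bc and Hsp70Bb (1626832_at) read 2536, 2214 and 2318 in adult knockdown against 2910, 3018 and 3094 in adult wild type, and 12316, 11151 and 10792 in larval knockdown against 10943, 10843 and 9422 in larval wild type. It was lower in knockdown adults (log2 -0.35, limma adjusted p = 0.00278), a call that was lost with arrays centred on their medians (log2 -0.07, adjusted p = 0.348). In larvae it was not called (log2 0.14, adjusted p = 0.186), and its difference between the stages (log2 -0.49, SE 0.10, adjusted p = 0.00560) was lost under the same centring (log2 -0.12, adjusted p = 0.269). In adults 1626832_at read far above 1632841_x_at, which names Hsp70Bc and Hsp70Bb alone (32.9 to 50.0 in knockdown, 57.3 to 153.5 in wild type). Which share of the 1626832_at signal belongs to Hsp70 was not tested. A further Hsp70 probe set lay below the lowest level tested in every group.

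**Figure D2:**
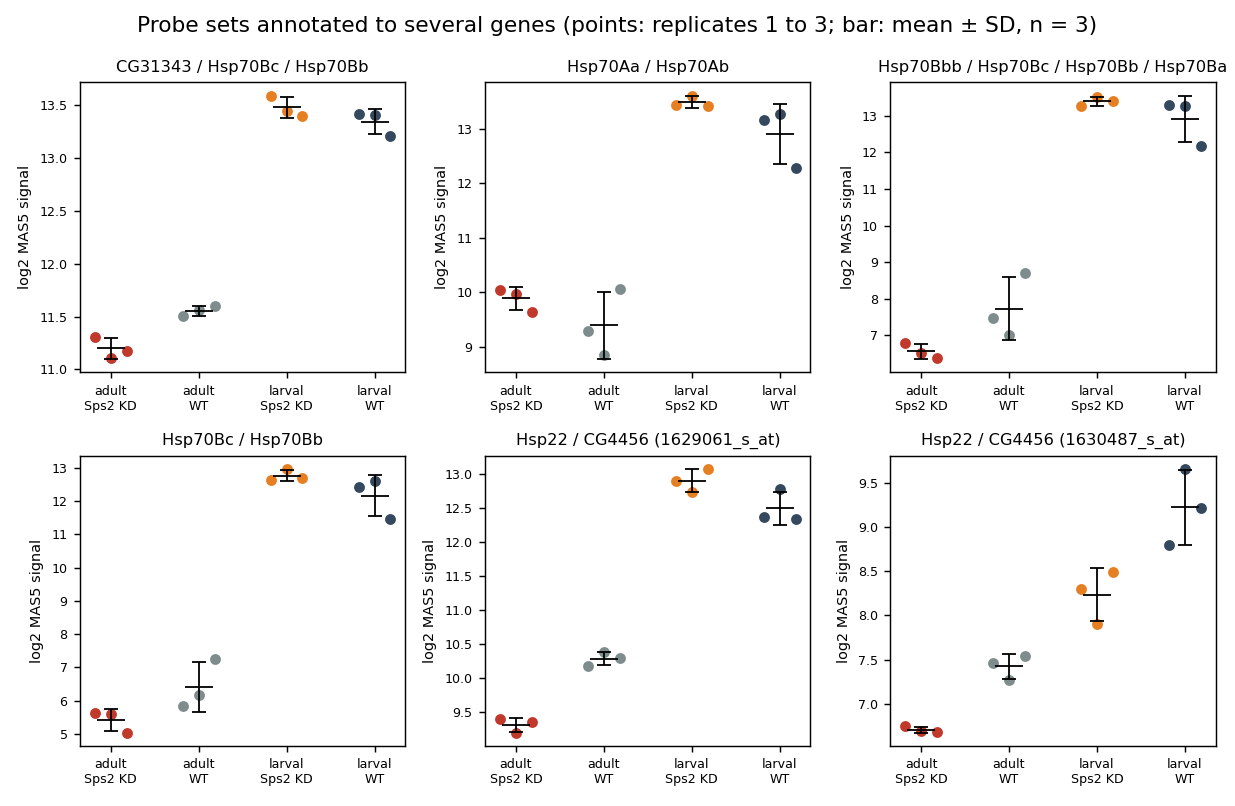
Log2 MAS5 signal on the 6 tested probe sets that the annotation gives to several genes, at least 1 of them a heat shock gene, 1 panel per probe set with its own axis range, with 1 point per array (replicates 1 to 3, left to right) and a bar for each group's mean ± SD (n = 3). Adults and larvae stand apart on all of them, wild-type larval array 3 is the lowest of its group on 5 of 6, and the 2 probe sets of Hsp22 with CG4456 differ in the direction of the larval knockdown.

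DnaJ-1, a J-domain protein that hands substrates to Hsp70, was higher in knockdown larvae. It read 13329, 13934 and 12431 in larval knockdown against 9528, 9815 and 6543 in larval wild type, so that the lowest knockdown larva lay above the highest wild-type larva. The change was 1.56-fold (log2 0.64, SE 0.12, limma adjusted p = 0.00258) and was called in all 21 alternatives (0.45 to 0.74). In adults it read 5825, 5332 and 4922 with the knockdown and 4745, 4517 and 4908 in wild type. Those groups met almost end to end, and the adult difference was not called (log2 0.18, SE 0.12, limma adjusted p = 0.307). It was called on adult arrays alone (adjusted p = 0.0360) and with arrays centred on their medians (log2 0.46, adjusted p = 0.00627). The difference between the stages was not called (log2 -0.46, SE 0.18, adjusted p = 0.0856), but was without larval wild-type array 2 (log2 -0.56, adjusted p = 0.0411).

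Hsp60A, the chaperonin that folds proteins imported into mitochondria, was lower with the knockdown at both stages. It read 4090, 4169 and 4170 in adult knockdown against 6338, 6477 and 6070 in adult wild type, and 5724, 6250 and 5689 in larval knockdown against 8480, 7218 and 8045 in larval wild type. The arrays did not overlap at either stage. The fall was 1.52-fold in adults (log2 -0.60, SE 0.06, limma adjusted p = 1.33e-05) and 1.34-fold in larvae (log2 -0.42, SE 0.06, limma adjusted p = 0.000210). Both calls held in all 21 alternatives, over -0.70 to -0.32 in adults and -0.51 to -0.31 in larvae. The difference between the stages was not called (log2 -0.18, adjusted p = 0.144), was called after quantile normalization (log2 -0.38, adjusted p = 0.00259), and had the other sign with arrays centred on their medians (log2 0.19).

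**Figure D3:**
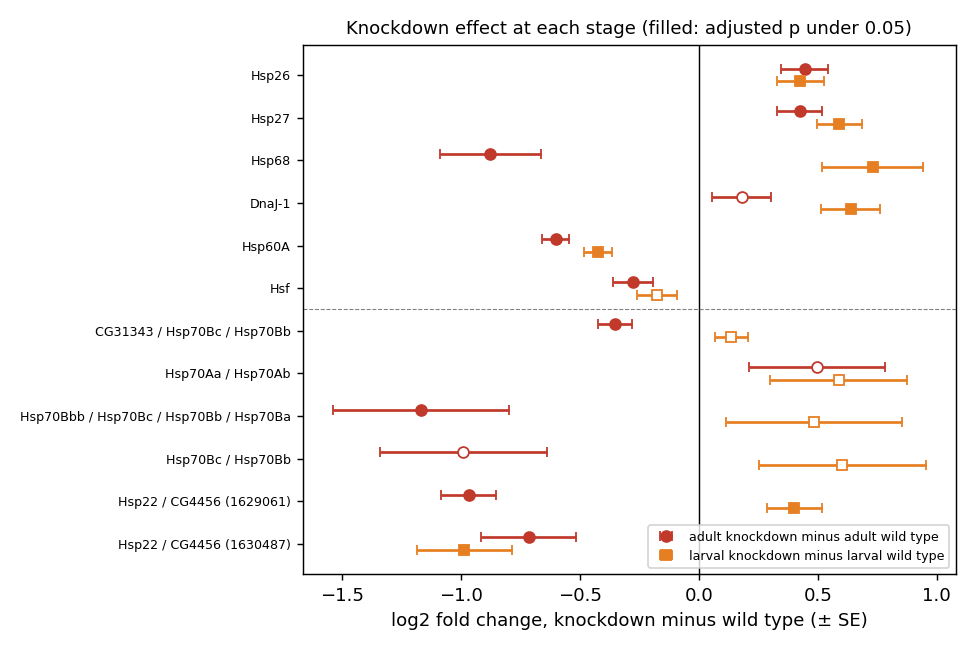
Log2 change of knockdown against wild type in adults and in larvae for the 6 genes and the 6 probe sets shared between genes, with bars of 1 standard error from limma; open points were not called. Hsp68 lies left of 0 in adults and right of 0 in larvae. So do the brighter probe set of Hsp22 with CG4456 (1629061_s_at) and each probe set that names Hsp70Bb, including the one shared with CG31343.

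Within groups the arrays ranked as follows on these genes, and the share of all probe sets with such ranks was not counted. Larval wild-type array 3 was the lowest of its group for 5 of the 6 members, all but Hsp60A, and for 5 of the 6 shared probe sets, and larval wild-type array 2 was the highest for 5 of the 6 members. On the larval stage markers array 3 was close to array 2 (27576 and 26177), and array 1 was the one that stood apart (1308). Without larval wild-type array 3 the larval changes were 0.31 for Hsp26, 0.47 for Hsp27, 0.45 for DnaJ-1 and 0.54 for Hsp68, the first 3 of these still called (adjusted p = 0.0246, 0.00101 and 0.00104). Adult wild-type array 3 was the highest of its group on 5 of the 6 shared probe sets and for Hsp68 and DnaJ-1, and the lowest for the other 4 members. Adult knockdown array 3 was the lowest of its group for 5 of the 6 members, and adult knockdown array 1 the highest on all 6 shared probe sets. The median log2 signals of arrays 1, 2 and 3 were 6.04, 6.03 and 5.95 in larval wild type. They were 6.69, 6.69 and 6.77 in adult wild type, and 6.47, 6.37 and 6.48 in adult knockdown. The part of these medians in the ranks was not tested.

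Between the stages, adult against larval wild type, 2 of the 6 members were called higher in adults, where 56.6% of all genes were, and 3 lower, where 27.5% of all genes were. The members' median difference was -0.18 and that of all genes 0.63. Hsp68 averaged 7.86 ± 0.47 in adult wild type and 12.16 ± 0.38 in larval wild type in log2 signal (SD, n = 3 each), 19.7-fold lower in adults (log2 -4.30, SE 0.21, limma adjusted p = 1.17e-09). Its order of group means, larval knockdown, larval wild type, adult wild type and adult knockdown, had no overlap between neighbours. DnaJ-1 came in the order larval knockdown, larval wild type, adult knockdown and adult wild type, also with no overlap. Hsf came in the order adult wild type, adult knockdown, larval wild type and larval knockdown, with overlap between the larval groups. For Hsp60A the order was larval wild type, adult wild type, larval knockdown and adult knockdown, and adult wild type overlapped with larval knockdown. For Hsp26 and Hsp27 the knockdown groups of both stages overlapped with each other and lay above all wild-type arrays.

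The shared Hsp70 and Hsp22 probe sets were lower in wild-type adults as well, by 36.2-fold for the set of Hsp70Bbb, Hsp70Bc, Hsp70Bb and Hsp70Ba (adjusted p = 3.83e-08), 53.6-fold for Hsp70Bc with Hsp70Bb (8.35e-09) and 11.4-fold for Hsp70Aa with Hsp70Ab (1.37e-07). For the set with CG31343 the log2 difference was -1.79 (adjusted p = 1.6e-10), and for the brighter and the dimmer set of Hsp22 with CG4456 it was -2.21 (1.99e-09) and -1.79 (2.58e-06). The 3'-to-5' control difference also differed between the stages, at 2.42 ± 0.07 in wild-type adults against 3.51 ± 0.11 in wild-type larvae (SD, n = 3 each), and its part in the stage differences was not tested.

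The size of the remaining stage differences depended on the scaling. That of Hsf was called under every alternative run but was 0.69 with arrays centred on their medians, against 1.40 as deposited. DnaJ-1 was 1.80-fold lower in wild-type adults (log2 -0.85, adjusted p = 3.58e-05), which was not called after quantile normalization (log2 -0.11, adjusted p = 0.390). Hsp60A was 1.25-fold lower in wild-type adults (log2 -0.33, adjusted p = 0.000177) but higher after quantile normalization (log2 0.44). Hsp27 was higher in wild-type adults (log2 0.26, adjusted p = 0.0237), not called without larval wild-type array 3 (adjusted p = 0.109) or adult wild-type array 2 (0.0659), and lower with arrays centred on their medians (log2 -0.45). Hsp26 was not called under the deposited scaling (log2 -0.02, limma adjusted p = 0.831). It was higher in adults after quantile normalization (log2 0.79) and lower under median centring (log2 -0.74). The median of all genes moved by -0.47 and -0.71 under these 2 scalings.

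Of the other chaperones, 43 genes on 5 lists were tested. In adults, where 14.2% of all genes were called higher and 16.2% lower, the counts were 0 higher and 2 lower of 3 small heat shock proteins, 0 and 1 of 5 constitutive Hsp70 and Hsp110 genes, 1 and 2 of 16 co-chaperones of Hsp70 and Hsp90, 0 and 2 of 11 mitochondrial chaperones, and 1 and 1 of 8 subunits of the cytosolic chaperonin CCT. In larvae the counts were 0 higher and 1 lower, 3 and 0, 6 and 1, 5 and 0, and 5 and 1, in the same order of lists. The lists' median log2 changes in larvae were -0.67, 0.28, 0.09, 0.30 and 0.30, and in adults -0.37, -0.09, -0.03, -0.08 and 0.04, beside 0.05 and -0.05 over all genes. Over all genes 15.8% were called higher and 11.0% lower in larvae.

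**Figure D4:**
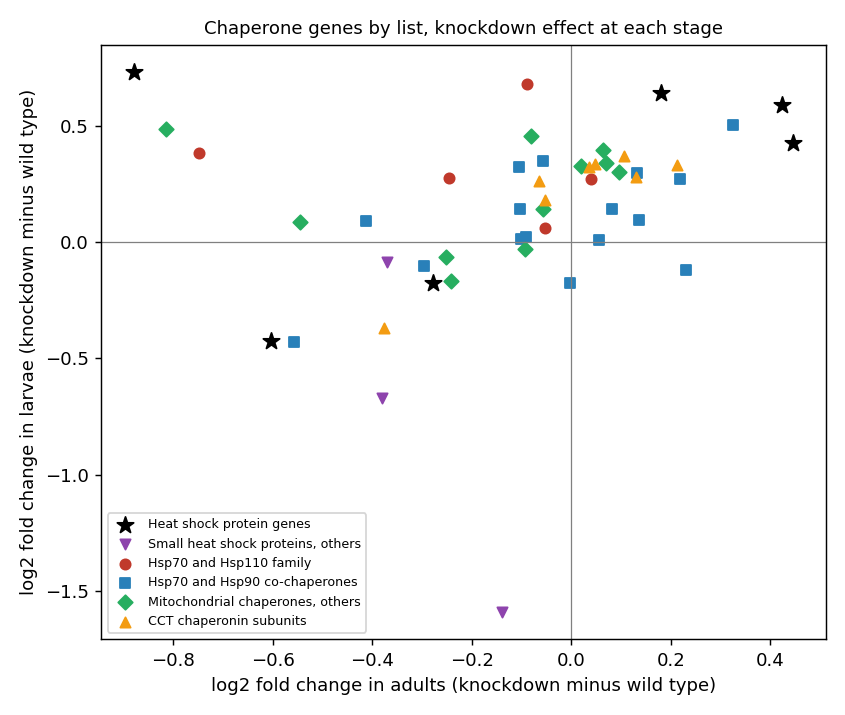
Log2 change of knockdown against wild type in adults (x axis) and in larvae (y axis), 1 point for each of the 6 heat shock protein genes (stars) and the 43 tested genes of the 5 chaperone lists (other symbols). Hsp68 is the star at the upper left (-0.88 in adults, 0.73 in larvae), Hsp26 and Hsp27 are those at the far right, Hsp60A is at the lower left, and most mitochondrial and CCT points lie above 0 in larvae and near 0 in adults.

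Outside the cluster, 2 further small heat shock genes were tested. CG7409, an alpha-crystallin family gene, read 3424 to 4008 in knockdown adults and 4464 to 4975 in wild-type adults, and 104.6 to 125.5 in knockdown larvae and 162.4 to 226.8 in wild-type larvae. It was lower in knockdown adults (log2 -0.38, limma adjusted p = 0.0305, lost in 6 of 21 alternatives) and in knockdown larvae (log2 -0.67, limma adjusted p = 0.00139). For l(2)efl, another gene of the alpha-crystallin family, the brightest probe set was lower in knockdown adults (log2 -0.37, adjusted p = 0.000924), not called with arrays centred on their medians (log2 -0.09, adjusted p = 0.256). Its 3 probe sets disagreed: 1635952_at was at 1.11 (adjusted p = 0.0921) in adults and 2.60 (adjusted p = 0.00140) in larvae, and 1626416_a_at at -0.23 (adjusted p = 0.0932) in adults and -0.36 (adjusted p = 0.0157) in larvae. The mean over the 3 was 0.17 in adults and 0.72 in larvae.

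In the constitutive Hsp70 class, Hsc70-1 was higher in knockdown larvae on all 3 of its probe sets (log2 0.68, adjusted p = 0.00280, on the brightest and 1.05 and 0.67 on the others). It read 108.9 to 136.6 in knockdown larvae and 64.6 to 91.1 in wild-type larvae. Hsp110, a nucleotide exchange factor of Hsp70, was higher in knockdown larvae (log2 0.27, adjusted p = 0.00313), and so was the mitochondrial Hsc70-5 (log2 0.28, adjusted p = 0.0423), though that call was lost in 14 of 21 alternatives. Hsc70-2 read 193.6 to 266.1 in adult knockdown and 360.0 to 415.0 in adult wild type (log2 -0.75, limma adjusted p = 0.00418), and its larval difference was not called (log2 0.38, adjusted p = 0.101). Its adult effect was below its larval effect (log2 difference -1.13, adjusted p = 0.00501), as for Hsp68. The median log2 change of the testis markers was -0.59 in adults and 0.54 in larvae. Their part in the Hsc70-2 values was not tested.

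Among co-chaperones, Stip1, the adaptor that links Hsp70 to Hsp90, was higher with the knockdown at both stages (log2 0.33, limma adjusted p = 0.000407 in adults; log2 0.50, limma adjusted p = 1.58e-05 in larvae). The myosin chaperone unc-45 was lower at both (log2 -0.56, limma adjusted p = 0.00153 in adults, and log2 -0.43, limma adjusted p = 0.00765 in larvae). Its adult call was lost under median centring (log2 -0.28, adjusted p = 0.0816). Muscle gene sums, taken under the deposited scaling only, were also lower in the knockdown at both stages. Their part in the unc-45 values was not tested. The Hsp70 nucleotide exchange factor stv was lower in knockdown adults (log2 -0.41, adjusted p = 0.00160), though not under median centring (log2 -0.13, adjusted p = 0.125), with a larval change of 0.09. Cdc37, which brings kinases to Hsp90, was higher in knockdown larvae (log2 0.29, adjusted p = 0.00516), and so was Roe1, the mitochondrial GrpE (log2 0.35, adjusted p = 0.0102).

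Of the 11 other mitochondrial chaperones, 5 were called higher and 0 lower in knockdown larvae. Higher in knockdown larvae were the prohibitins Phb2 (log2 0.33, limma adjusted p = 0.000246) and Phb1 (log2 0.30, adjusted p = 0.00329), the mitochondrial Hsp90 Trap1 (log2 0.34, adjusted p = 0.00308) and CG5504 (log2 0.40, adjusted p = 0.0164, lost in 5 of 21 alternatives). In adults the protease subunit ClpP (log2 -0.24, adjusted p = 0.0107) and Hsp60C, a paralogue of Hsp60A, were lower with the knockdown. Hsp60C read 402.8 to 538.8 in adult knockdown and 691.6 to 910.3 in adult wild type (log2 -0.81, adjusted p = 0.0130), and its larval difference was not called (log2 0.49, adjusted p = 0.118). Testis marker sums were lower in knockdown adults too and higher in knockdown larvae, and their part in these values was not tested. ClpP was at -0.17 in larvae, not called (adjusted p = 0.0607), and with arrays centred on their medians its adult change was 0.04. The adult call of Hsp60C was lost without adult knockdown array 2 (adjusted p = 0.0597) or adult wild-type array 3 (0.0564).

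In the CCT chaperonin, which folds actin and tubulin, 5 of 8 subunits were higher in knockdown larvae, CCT4 (log2 0.37, limma adjusted p = 0.000448), CCT7 (log2 0.33, adjusted p = 0.00165) and CCT6 (log2 0.33, adjusted p = 0.00356) among them. CCT6 was higher in knockdown adults also (log2 0.21, adjusted p = 0.0330, lost in 8 of 21 alternatives). CCT2 was lower with the knockdown at both stages (log2 -0.38, adjusted p = 8.46e-05 in adults; log2 -0.37, adjusted p = 0.000103 in larvae), with the adult call lost under median centring (log2 -0.10, adjusted p = 0.278). Median centring also ended the larval calls of CCT6 (log2 0.24, adjusted p = 0.0701), Hsp110 (0.18, 0.123), Cdc37 (0.21, 0.0520), Roe1 (0.26, 0.0834) and Phb1 (0.21, 0.100).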

How the data were processed

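Arrays of 4 groups were compared from 1 deposited table of log2 signals, computed by the authors using MAS5 according to the submitters' processing notes, with no version stated. The log2 scale was inferred from the deposited values, whose linear form has a trimmed mean of 500.01 to 500.02 on every array. Detection calls were not used, and 0 value columns were tied to no sample. The number of arrays, 3 per group, limits the precision.

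Without the 183 control probe sets, those reaching the 40th percentile of their own array (35.2 to 40.2 in linear signal) on 3 or more of 12 arrays were tested. In the platform annotation 13647 probe sets had 1 symbol, 402 several and 4720 none. A gene with several probe sets stood by the one with the highest mean. Limma 3.58.1 in R 4.3.3 fitted a mean per group to all 12 arrays (lmFit, contrasts.fit, eBayes with a variance trend, 8 residual degrees of freedom), and p-values were adjusted by Benjamini-Hochberg over the 12827 probe sets of a contrast. Log2 changes have knockdown over wild type, or adult over larva, with n = 3 arrays per group. Same-numbered arrays did not deviate together (r = -0.09 to 0.02), so they were not paired.

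The members and lists were chosen with earlier results of these data known. Of 157 list entries, 125 had a probe set of their own. Named were all members, the Hsp70 copies as values, and of each chaperone list up to 4 called genes with the smallest adjusted p per knockdown contrast. The fit was tested on simulated data. Alternatives were quantile normalization, median centring, no or a stricter filter (60th percentile), no variance trend, array weights, each stage alone, a replicate block, the mean over a gene's probe sets, and leaving out each array. No genome sequence was used, so promoter motifs were not searched.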

Additional observations from a re-analysis of the deposited data

Results flagged for a closer look

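The knockdown effect in adults differed from that in larvae by a test of the difference itself (adult minus larval log2 change, limma with Benjamini-Hochberg adjustment over all probe sets) for 1 of the 6 members, 4 of the 6 shared probe sets and 10 of the 21 other chaperones named, where 21.9% of all genes were called. The other chaperones were named because they were called at a stage, so their share is not comparable with that of all genes. Nor is that of the shared probe sets, since probe sets naming several genes were not counted among all genes. Of the shared ones, 1626821_s_at, 1632841_x_at and 1626832_at each name Hsp70Bb and Hsp70Bc, so their calls are not separate results. For Hsp68 the difference between the effects was -1.61 (adjusted p = 0.00362), with all 3 knockdown adults below and all 3 knockdown larvae above the wild type of their stage. For the probe set of Hsp70Bbb, Hsp70Bc, Hsp70Bb and Hsp70Ba (1626821_s_at) it was -1.65 (adjusted p = 0.0432), and for that of Hsp70Bc and Hsp70Bb (1632841_x_at) it was -1.59 (adjusted p = 0.0396), each lost in 14 of 20 alternatives. On 1632841_x_at the adult knockdown signal lay near the lowest level tested. For the probe set of CG31343 with Hsp70Bc and Hsp70Bb (1626832_at) it was -0.49 (adjusted p = 0.00560), lost under median centring. For the brighter probe set of Hsp22 with CG4456 (1629061_s_at) it was -1.37 (adjusted p = 0.000255).

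Among the other chaperones it was -1.13 for Hsc70-2 and -1.30 for Hsp60C, both held in all 20 alternatives. It was -0.77 for Hsc70-1, -0.52 for Hsc70-5, -0.50 for stv and -0.31 for Phb2, each lost or turned in 1 of 20 alternatives, median centring. It was -0.40 for Roe1, -0.28 for l(2)efl, -0.26 for CCT4 and -0.29 for CCT7, calls that were lost or turned in 13, 15, 14 and 9 of 20 alternatives, in that order.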

How the results depend on the processing

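Each knockdown contrast was recomputed under 21 alternatives and the difference between the stages under 20. Of the 6 members 4 to 6 were called in adults, in larvae and between wild-type stages. For the difference between the stages 2 members rather than 1 were called after quantile normalization and after median centring, and leaving out single arrays gave 1 to 2. Directions turned under median centring for the adult change of Hsf (0.0023), Hsc70-1 (0.19), Hsc70-5 (0.035), Roe1 (0.22) and ClpP (0.039), for the stage difference of the effect of Hsf (0.26), Hsp27 (0.20), Hsp60A (0.19) Hsp70Aa with Hsp70Ab (0.28), l(2)efl (0.083), Phb2 (0.058), CCT4 (0.10) and CCT7 (0.080), and for Hsp27 between wild-type stages (-0.45). Quantile normalization turned Hsp26 (0.79) and Hsp60A (0.44) between wild-type stages. Averaging probe sets turned l(2)efl in adults (0.17) and larvae (0.72). Leaving out single arrays gave -0.37 to 0.24 for the difference of Hsp70Aa with Hsp70Ab, and for Hsp26 -0.11 to 0.13 for that difference and -0.13 to 0.11 between wild-type stages. With a replicate block the adult call of Hsf was lost (adjusted p = 0.0865), and no other member's knockdown call was. Without a variance trend the calls of Hsf in adults (adjusted p = 0.0623) and Hsp68 in larvae (0.0537) were lost, and with array weights that of Hsp68 in larvae (0.123). Over all genes median centring gave 3944 higher and 669 lower in adults (1481 and 1685 as deposited), 1013 higher in larvae (1651), 3298 higher and 628 lower for the difference (852 and 1434), and 4511 lower between wild-type stages (2866). Array weights gave 2359 and 2573 in adults, adult arrays alone 2456 and 2860, larval arrays alone 1059 higher, and leaving out adult knockdown array 2 or adult wild-type array 3 gave 922 or 982 higher. The causes were not tested. Probe sets near the lowest level tested carry little signal over background.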
